A study of Caenorhabditis elegans with 6 samples.

Results

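The genes described here are the long noncoding RNA and antisense RNA genes of Caenorhabditis elegans that were expressed in larvae arrested at the first stage (L1 arrest). They are the genes typed lncRNA or antisense_RNA in the deposited expression table whose mean over the 6 libraries was at least 1 FPKM (a read level corrected for the length of the gene and the size of the library). Of 291 genes of these types, 97 met that rule, 82 of 191 lncRNA genes and 15 of 100 antisense RNA genes, in a table of 45519 genes. The members were thus chosen by their mean FPKM, and their levels are given as a description without a test. The libraries came from whole bodies of 2 strains, 3 from the wild type N2 and 3 from a mutant with the allele aqz 3 of linc-133, itself a long intervening noncoding RNA gene. Larvae of both strains hatched without food after the eggs had been placed in M9 buffer at 20 °C, and were taken after 3 days. The labels say neither what the allele changes in linc-133 nor whether the replicates were cultured apart. Each p-value is thus set against a spread between libraries that may be technical.

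Long intervening noncoding RNAs are transcripts that carry no long reading frame and lie between protein-coding genes, and antisense RNAs are transcribed from the strand opposite a coding gene. Some noncoding RNAs act on neighbouring genes or on proteins they bind, but few in C. elegans have a known role. lep-5 is one of these, a timing RNA that acts in the passage from juvenile to adult. Larvae in L1 arrest hatch without food and stop growing until they are fed. Most members carry only a linc or anr number or a clone name, and no role is given for them here.

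Recovered reads on genes numbered 16108063 to 18556695 per library, of which the members held 0.0481% to 0.0629%. Defining markers of muscle (unc-54, myo-3), pharynx (myo-2), intestine (elt-2, ges-1), neurons (unc-119, rab-3), epidermis (dpy-7, lin-26) and germline (pgl-1) had reads in every library. The yolk genes vit-2, vit-5 and vit-6 of adults were each under 1 FPKM, and of the sperm genes msp-3 and msp-19 were at 0 and msp-31 ran from 0.273 to 0.610 FPKM in the wild type and from 0.632 to 3.01 FPKM in the mutant. Mutant replicate 3 stood apart in muscle genes, with 1672 FPKM of unc-54 against 578 to 924 FPKM in the other 5 libraries. The part of these differences in the results below was not tested. In whole bodies, fewer cells of a type and less RNA per cell cannot be told apart. linc-133 averaged 0.0825 FPKM over the 6 libraries, far under the level required of a member, and ranked 205 of the 291 genes of these types. The mutant mean minus the wild-type mean of linc-133 was -0.0558 FPKM (2-sided exact permutation p = 0.1, the smallest that 3 libraries against 3 can give). Its reads were only 9, 6 and 5 in wild-type replicates 1 to 3 and 6, 2 and 2 in the mutant ones. Wild-type replicate 3 (0.0883 FPKM) and mutant replicate 1 (0.0878 FPKM) were almost equal, so the separation of the strains rests on very few reads.

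The members were mostly weakly expressed. Their median level was 3.53 FPKM, with quartiles at 1.68 and 7.09 FPKM and a range of 1.01 to 89.0 FPKM. The 13868 protein-coding genes at 1 FPKM or more had a median of 13.7 FPKM, and 13 of the 97 members lay above it. There were 19 members at 10 FPKM or more, 43 from 2 to under 10 FPKM, and 35 from 1 to under 2 FPKM. With a median length of 397 bases (108 to 4071), a member had a median of 24 reads per library, and 16 of 97 averaged fewer than 10 reads. Reads were found in all 6 libraries for 94 members. The median coefficient of variation between libraries was 23.8% in the wild type and 42.6% in the mutant.

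The highest member was T09F5.12 (gene 13216835, lncRNA), which lies on chromosome V from 15164743 to 15166318 on the minus strand of WBcel235 in 3 exons. It measured 58.9, 76.3 and 83.8 FPKM in the wild type, listed here and below from replicate 1 to 3, and 102, 68.2 and 144 FPKM in the mutant. The strains overlapped, since mutant replicate 2 lay below the 2 higher wild-type libraries. T09F5.12 alone took 24.4% of all reads on members. The nearest coding gene to it, srz-11, lies 225 bases away and averaged 0.226 FPKM.

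linc-11 (gene 24105130, chromosome II, 3373169 to 3374185, minus strand) followed at 34.2, 51.0 and 51.3 FPKM in the wild type and 51.9, 43.0 and 45.9 FPKM in the mutant. The mutant libraries lay close together within the range of the wild-type ones, apart from replicate 1, which exceeded it narrowly. C39B5.16 (gene 54161936, chromosome III, 2233641 to 2234033, plus strand) measured 21.5, 19.8 and 22.2 FPKM in the wild type and 47.4, 32.7 and 21.2 FPKM in the mutant. Mutant replicates 1 and 2 were above every wild-type library and replicate 3 was among them, so the strains overlapped. linc-84 (gene 24104643, chromosome I, 8865945 to 8866624, 1 exon) measured 3.24, 23.7 and 19.9 FPKM in the wild type and 14.8, 20.6 and 19.9 FPKM in the mutant. A single low library, wild-type replicate 1, set its wild-type mean of 15.6 FPKM, and without that library its log2 change turned from 0.57 to -0.24.

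In 5 other members of the upper end the strains overlapped. linc-8 averaged 25.02 ± 1.97 FPKM in the wild type and 29.4 ± 6.03 FPKM in the mutant (mean ± SD over 3 libraries each, here and below), linc-56 19.01 ± 2.75 and 20.9 ± 4.13 FPKM, and linc-9 14.4 ± 2.43 and 15.6 ± 5.02 FPKM. linc-15 averaged 21.8 ± 7.20 and 23.5 ± 7.12 FPKM, and the 12-exon gene Y9D1A.1 22.6 ± 5.30 and 21.3 ± 9.06 FPKM. The remaining 4 of the 12 highest, linc-22, linc-1, linc-14 and linc-37, are described with the strain comparison.

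**Figure D1:**
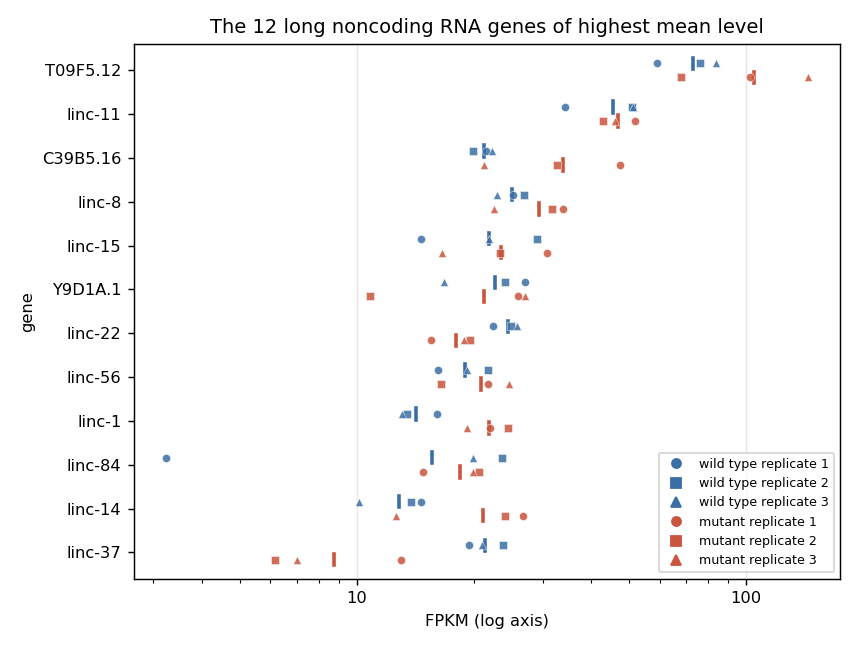
FPKM (log axis) of the 12 members with the highest mean in each of the 6 libraries, with wild-type replicates in blue and linc-133(aqz 3) replicates in red. The library points of T09F5.12 run from 58.9 to 144 FPKM, and linc-84 has 1 wild-type point at 3.24 FPKM far below its other 5.

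The share of genes that were members differed with the name class and number. Of 169 genes named linc, 69 were members, against 11 of 57 named anr (antisense RNA) and 17 of 65 with clone or other names. Among linc genes numbered 1 to 30, 21 of 30 were members and the median over all 30 was 5.04 FPKM. Only 4 of the 49 numbered above 120 were members, with a median of 0.177 FPKM. The 3 ranges between gave 17, 11 and 16 members of 30 each (numbers 31 to 60, 61 to 90 and 91 to 120). Of the 97 members, 26 had 1 exon and 43 had 2, and the remaining 28 had 3 or more.

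At the level that chose the members, linc-81 (1.05 FPKM), linc-149 (1.02 FPKM) and linc-131 (1.01 FPKM) lay just inside. linc-32 (0.988 FPKM), anr-24 (0.885 FPKM) and H09G03.4 (0.855 FPKM) lay just outside. linc-131 averaged only 2.17 reads per library, so genes near the limit can change sides with a read. Of all 291 genes of these types, 52 had no read in any library, 37 of them antisense RNA genes and 15 lncRNA genes.

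Members were then placed relative to coding genes. The span of 33 members overlapped that of a protein-coding gene by at least 1 base, 25 on the opposite strand and 8 on the same strand, and 64 overlapped none. Of the 194 genes of these types under 1 FPKM, 116 overlapped a coding gene, 59.8% against 34.0% of members. The mix of types sets much of that gap, since 85 of those 194 genes but only 15 of 97 members are antisense RNA genes. Within lncRNA genes the overlap was 35 of 109 (32.1%) under 1 FPKM and 20 of 82 (24.4%) in members, and within antisense RNA genes 81 of 85 (95.3%) and 13 of 15 (86.7%). The 64 members outside lay a median of 895 bases from the nearest coding gene (25 to 11482), and 35 of them within 1 kb.

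Exons were compared in the same way. Exon positions were read from the Ensembl 115 annotation of WBcel235, in which all 291 genes had the ends and exonic length of the deposited table. Exonic bases were shared with a coding gene in 16 of 97 members (16.5%) and in 99 of 194 genes under 1 FPKM (51.0%). Within lncRNA genes these shares were 9 of 82 (10.98%) and 24 of 109 (22.02%), and within antisense RNA genes 7 of 15 (46.7%) and 75 of 85 (88.2%), so the mix of types makes up part of the pooled gap. The share of members was smaller where more of a gene's exonic bases were shared, from 81 of 176 genes with none, through 8 of 29 (up to 25%), 4 of 22 (up to 50%) and 3 of 25 (up to 75%), to 1 of 39 above 75%. Median levels in the same order were 0.779, 0.362, 0.213, 0.0429 and 0 FPKM. In the last of these classes 30 of 39 genes were at 0 in every library, 25 of 30 antisense RNA genes and 5 of 9 lncRNA genes. The classes differ in type, as antisense RNA genes are 18 of the 176 genes that share no exonic base. Among these 176, 8 of the 18 antisense RNA genes and 73 of the 158 lncRNA genes were members. The lower share of members among antisense RNA genes was thus not seen in genes without shared exonic bases.

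Some genes at 0 lay inside strongly expressed coding exons. All exonic bases were shared with a coding gene in 15 genes, of which 13 were at 0, including each of the 6 whose coding gene exceeded 10 FPKM. K11D9.5 lies wholly within exons of sca-1, the calcium pump gene of the endoplasmic reticulum, and was at 0 in all 6 libraries although sca-1 averaged 389 FPKM. The library kit keeps no strand information, and how reads in shared exons were assigned is not given in the sources used here. In these 6 genes no read in the shared exons was listed for the noncoding gene, so a 0 there does not show that it was silent. The one member above 75% was linc-102, wholly inside a coding exon in Ensembl 115 but outside every coding span of the deposited table.

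**Figure D2:**
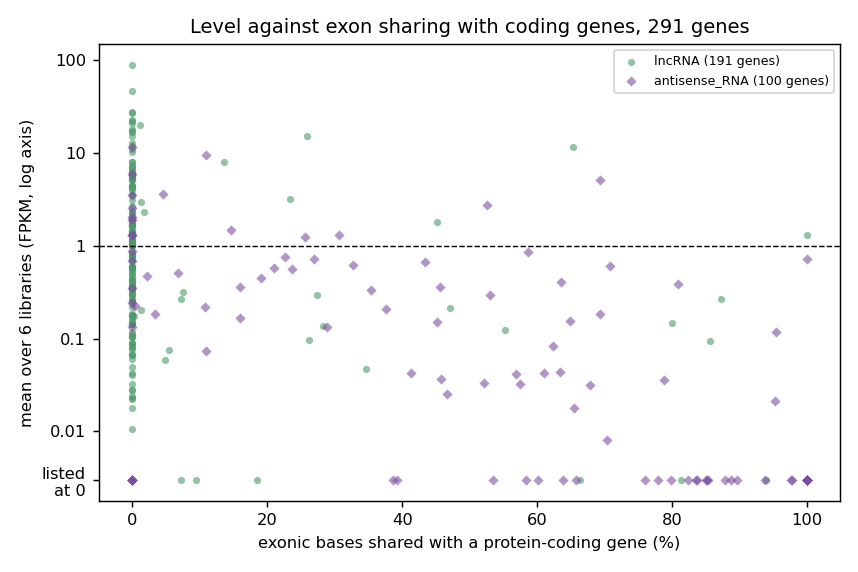
Mean FPKM over the 6 libraries (log axis, with genes at 0 drawn at its foot) of the 291 lncRNA and antisense RNA genes, one point each, against the percentage of their exonic bases that also belong to a protein-coding gene. The dashed line is the 1 FPKM required of members. The median level fell from 0.779 FPKM in genes sharing no exonic base to 0 FPKM in those sharing more than 75%.

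The 2 strains were next compared over all 16794 genes at or above a mean of 1 FPKM, with limma on log2(FPKM + 1) and Benjamini-Hochberg adjustment over all of them. A log2 change below is the mutant minus the wild type on that scale, which understates the change of low genes. No member passed an adjusted p of 0.05, and neither did any other gene (0 of 97 and 0 of 16794, a background of 0%). limma's voom on the recovered reads called 0 members and 3 genes, and 2 members and 446 genes with a quality weight per library. An unadjusted limma p under 0.05 was found for 20 members, 5 higher and 15 lower in the mutant. That is 20.6% of members, against a background of 13.7% of all genes tested (7.22% higher and 6.48% lower). By type it was 14 of 82 lncRNA members (17.1%) and 6 of 15 antisense RNA members (40%). Among the 1042 tested genes typed ncRNA it was 17.3%, with 22 higher and 158 lower. Of these 1042 genes, 780 averaged fewer than 10 reads. More lower than higher genes are thus not particular to the members. The 3 mutant libraries lay all above or all below the wild-type libraries in 23 members, 5 higher and 18 lower. That is 23.7% of members, against a background of 20.0% (10.5% higher and 9.54% lower). Among the genes typed ncRNA it was 17.9%, with 27 higher and 159 lower.

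The members that lay below the wild type were in part those of low level. A gene expressed in 1 strain only can reach the required mean through that strain, and 21 members averaged 1 FPKM or more in only 1 strain, 15 of them in the wild type. These 21 held 9 of the 18 members lying wholly below the wild type. At an unadjusted limma p under 0.05, 7 of the 15 lower and 1 of the 5 higher members were among the 21. Among the 76 members at 1 FPKM or more in both strains, 4 lay wholly above and 9 wholly below, and their median log2 change was -0.01. Of these 76, 4 were higher and 8 lower at an unadjusted limma p under 0.05. The median log2 change was -0.07 over all 97 members, with 43 above 0 and 54 below, and 0.00 over all genes tested. It was -0.22 in the 57 members under 5 FPKM and 0.12 in the 40 members at 5 FPKM or more.

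Among members lower in the mutant, linc-37 (gene 24104708, lncRNA, chromosome III, 832984 to 833347, plus strand, 2 exons) had the lowest p. It measured 19.4, 23.8 and 20.95 FPKM in the wild type and 13.02, 6.15 and 7.01 FPKM in the mutant. All 3 mutant libraries lay below all wild-type libraries, and replicates 2 and 3 were lowest. The mean was 2.45-fold lower, from 21.4 ± 2.20 to 8.73 ± 3.74 FPKM (SD over 3 libraries each). limma gave a log2 change of -1.26 (SE 0.265, adjusted p = 0.167).

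anr-54 (gene 24104401, antisense RNA, chromosome II, 5329561 to 5331221, minus strand) measured 2.76, 2.93 and 3.17 FPKM in the wild type and 0.381, 0.826 and 1.36 FPKM in the mutant. The wild-type libraries lay within a narrow band, and the highest mutant library was under its lower edge. The reads behind these values were 67, 67 and 69 in the wild type and 10, 17 and 27 in the mutant. The mean was 3.45-fold lower in the mutant, at 0.855 FPKM, so that anr-54 is a member only through the wild type, where it is high (limma log2 change -1.12, SE 0.282, adjusted p = 0.203). With a quality weight per library in limma's voom on the recovered reads, linc-37 and anr-54 passed at adjusted p-values of 0.0424 and 0.0327, in a fit that called 2.66% of all genes (0.601% lower). Since anr-54 reached the required level through its higher strain alone, its call is a description and no evidence about the members.

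linc-22 (gene 24104598, lncRNA, chromosome X, 9069138 to 9073735, plus strand) was the longest and best covered of the 8 lower members, with a mean of 1523 reads per library. It measured 22.4, 24.9 and 25.9 FPKM in the wild type and 15.5, 19.5 and 18.9 FPKM in the mutant. The strains did not overlap, and the difference was small beside that of linc-37, at a log2 change of -0.42 (SE 0.137, limma adjusted p = 0.269). linc-85 measured 6.66, 9.18 and 8.09 FPKM in the wild type and 5.41, 4.69 and 3.86 FPKM in the mutant, also without overlap.

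The remaining 4 of these 8 lower members averaged 1.41 to 2.73 FPKM over the 6 libraries. linc-96 averaged 2.37 ± 0.336 FPKM in the wild type, against 0.984 ± 0.170 FPKM in the mutant. The values of linc-83, near the GATA factor gene elt-4, were 2.40 ± 0.270 and 0.978 ± 0.581 FPKM. K09A9.12 averaged 2.04 ± 0.283 and 0.780 ± 0.3 FPKM, and C15H11.16 3.47 ± 0.288 and 1.98 ± 0.444 FPKM. In each of these 4 genes the strains did not overlap, and limma's adjusted p lay between 0.265 and 0.318. linc-96, linc-83 and K09A9.12 averaged under 1 FPKM in the mutant, so they too are members only through the wild type.

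Among members higher in the mutant, linc-1 (gene 13182825, lncRNA, chromosome I, 13652524 to 13652727, plus strand) had the lowest p. It measured 16.03, 13.5 and 13.1 FPKM in the wild type and 21.96, 24.5 and 19.2 FPKM in the mutant. Each mutant library was above each wild-type library, and the mean was 1.54-fold higher (log2 change 0.59, SE 0.147, limma adjusted p = 0.201). ZK822.8 (gene 13198378, antisense RNA, chromosome IV, 11918201 to 11920775, plus strand) measured 2.57, 4.09 and 4.07 FPKM in the wild type and 5.55, 7.08 and 7.59 FPKM in the mutant. Its strains did not overlap either (log2 change 0.77, SE 0.212, limma adjusted p = 0.234).

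linc-82 also showed no overlap, at 2.26, 2.16 and 1.59 FPKM in the wild type and 2.99, 3.05 and 5.69 FPKM in the mutant. Mutant replicate 3 was its highest library. M04F3.7 measured 9.43, 7.33 and 4.88 FPKM in the wild type and 16.8, 13.9 and 8.999 FPKM in the mutant, where replicate 3 lay inside the wild-type range. C16C4.19, linc-14 and C39B5.16 had the same order, with mutant replicate 1 highest and mutant replicate 3 within the wild-type range. linc-14 measured 14.6, 13.8 and 10.1 FPKM in the wild type and 26.7, 24.0 and 12.6 FPKM in the mutant. C16C4.19 measured 3.62, 3.36 and 4.38 FPKM in the wild type and 10.3, 8.72 and 3.87 FPKM in the mutant. linc-72 had its highest value in mutant replicate 2, at 7.77 FPKM, against 1.95 and 1.65 FPKM in replicates 1 and 3 and 0.506, 1.70 and 0.283 FPKM in the wild type. Its wild-type mean was 0.830 FPKM, so linc-72 is a member only through the mutant.

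**Figure D3:**
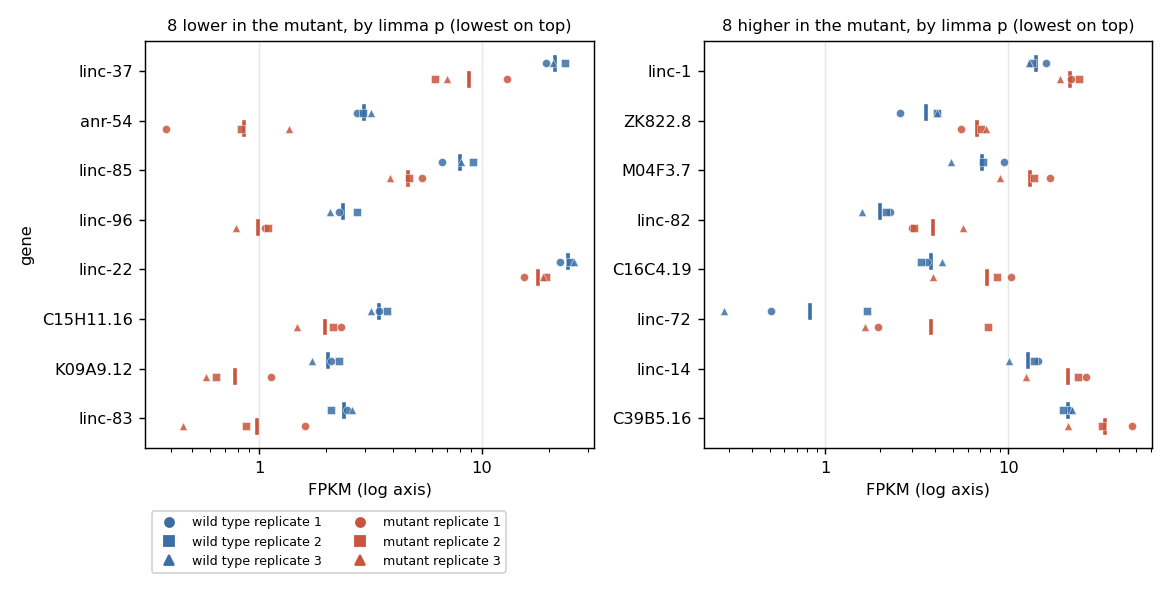
FPKM of the 8 lower and 8 higher members of lowest limma p, by library, with each strain's mean as a vertical bar. The 8 lower members show no overlap between strains, and of the 8 higher ones linc-1, ZK822.8 and linc-82 show none.

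lep-5, the timing RNA, measured 1.95, 0.590 and 3.11 FPKM in the wild type and 1.03, 3.39 and 1.59 FPKM in the mutant. The libraries of the strains were interleaved, and the log2 change was 0.09 with an SE of 0.454. linc-110, the only member within 50 kb of linc-133, measured 0.815, 1.02 and 1.23 FPKM in the wild type and 0.558, 1.44 and 3.25 FPKM in the mutant. The mutant libraries of linc-110 lay on both sides of the wild-type ones. The noncoding RNAs tts-1 and rncs-1 are typed ncRNA in the table and are not members.

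Levels in single mutant libraries differed with gene length, in members and in coding genes. In coding genes under 300 bases, the median deviation from a gene's mean on the log2(FPKM + 1) scale was 0.17 in mutant replicate 1 and -0.17 in replicate 3. In coding genes of 2000 bases or more it was -0.13 and 0.19. Members under 300 bases stood at 0.30 in mutant replicate 1 and -0.20 in replicate 3, while the wild-type libraries of that class lay between -0.07 and 0.05. Mutant replicate 1 was the highest library for 27 of 97 members, 25 of them under 500 bases long. Mutant replicate 3 was the lowest for 32, of which 21 were under 500 bases long. Of all 97 members, 61 were under 500 bases long. Among coding genes, mutant replicate 1 was highest in 16.6% and mutant replicate 3 lowest in 22.1%. linc-14 and M04F3.7, at 255 and 228 bases, are in the class under 300 bases. C39B5.16 and C16C4.19, at 303 and 348 bases, are in the class from 300 to under 500 bases. Members of that class stood at only 0.04 in mutant replicate 1 and at -0.34 in mutant replicate 3, and were highest in wild-type replicate 2, at 0.19. Coding genes of that class stood at 0.14 in mutant replicate 1 and -0.26 in mutant replicate 3. With the length trend of the coding genes removed from each library, an alternative added after these values were seen, 8 members were higher and 15 lower at an unadjusted limma p under 0.05. The share of all genes at that p in this fit is not given here, so the count has no background beside it. The part of length in the strain differences was not tested further.

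**Figure D4:**
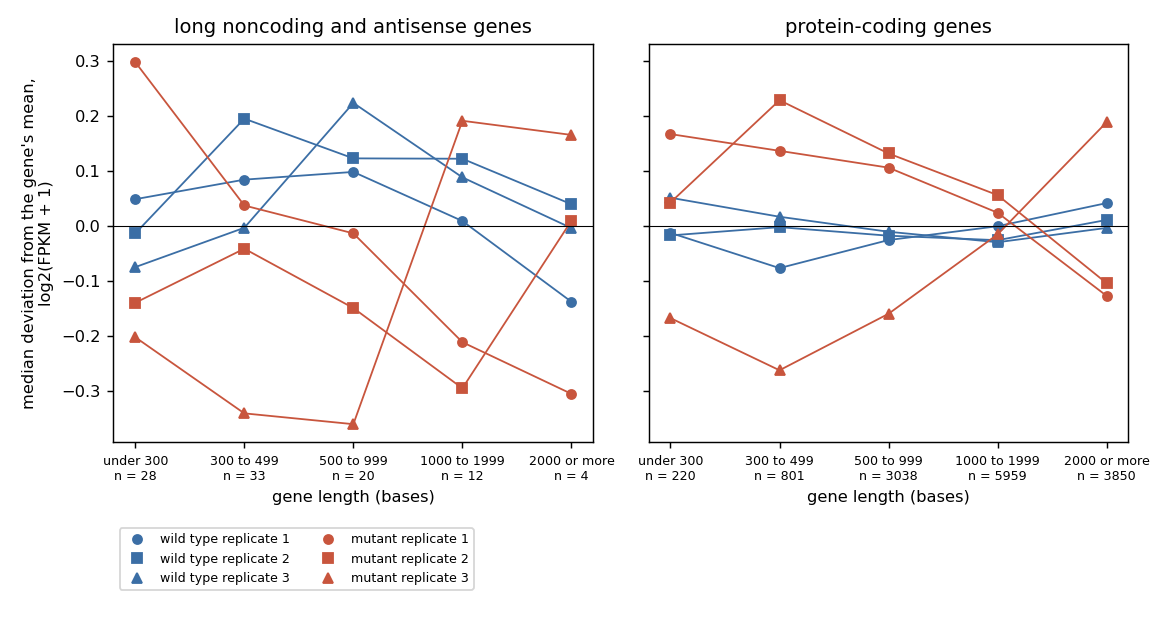
Median deviation of log2(FPKM + 1) from each gene's mean over the 6 libraries, by gene length in bases, for the 97 members (left) and 13868 protein-coding genes (right). Mutant replicate 1 is highest and mutant replicate 3 lowest in genes under 300 bases in both panels, and replicate 3 is highest in genes of 2000 bases or more.

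The members that overlap a coding gene were set beside that gene, taking the coding gene with the largest shared span. The member was below its coding gene in FPKM in 24 of 33 pairs, and the median ratio of coding gene to member was 2.58. linc-1 lies in the span of rpl-31, a gene of the large ribosomal subunit, on the opposite strand without a shared exonic base. rpl-31 averaged 1885 FPKM and its log2 change was -0.04, against 0.59 for linc-1. linc-15 lies likewise opposite ucr-2.1, a gene of the mitochondrial cytochrome bc1 complex, which averaged 337 FPKM.

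In 28 pairs the coding gene was also tested, and the log2 changes of member and coding gene were correlated over these pairs. Pearson's r was 0.79 and Spearman's rho 0.80, with the same sign in 20 of 28 pairs. Over the 13 pairs that shared no exonic base r was also 0.79 (rho 0.72, same sign in 9 of 13), and over the 15 that shared some it was 0.83. Without linc-72 and ZK822.8, whose coding genes lay farthest from the median, r was 0.74 over 26 pairs. Members outside coding genes and their nearest coding gene gave r = 0.28 over 55 pairs (rho 0.25, same sign in 33). The values of a pair come from the same 6 libraries, so these correlations are a description. Since the kit keeps no strand information, reads in a shared span are not told apart by strand, also where no exonic base is shared. The part of such reads in the correlations was not tested. The pairs include anr-54, anr-17, anr-43 and linc-72, which are members only through 1 strain. Of these, the r of 0.74 leaves out linc-72 alone. No r is given here over pairs whose member reached 1 FPKM in both strains. These correlations are thus no evidence about the members.

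linc-37 lies within the span of zip-2, a bZIP transcription factor gene of the response to pathogens, on the same strand, and 78 of its 302 exonic bases are shared. zip-2 measured 297, 328 and 274 FPKM in the wild type and 343, 171 and 140.2 FPKM in the mutant. In both genes mutant replicate 1 was the highest of the mutant libraries, but in zip-2 it was also above the wild type. anr-54 lies opposite vhp-1, a MAP kinase phosphatase gene, without a shared exonic base. vhp-1 measured 89.5, 116 and 122 FPKM in the wild type and 80.6, 71.4 and 103 FPKM in the mutant, so that its strains overlapped through mutant replicate 3, which was also the highest mutant library of anr-54.

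ZK822.8 lies opposite fat-6, a stearoyl-CoA desaturase gene of fatty acid synthesis, and 170 of its 245 exonic bases are shared. fat-6 measured 254, 323 and 445 FPKM in the wild type and 305, 618 and 750.4 FPKM in the mutant. The order of the mutant libraries was the same in ZK822.8 and fat-6. ZK822.8 averaged 5.16 FPKM against 449 FPKM of fat-6, although most of its exonic bases are shared. linc-72 shares 11 exonic bases with F46C5.1, which measured 1.03, 5.10 and 1.23 FPKM in the wild type and 5.78, 10.8 and 6.46 FPKM in the mutant. Replicate 2 was the highest library of its strain in both linc-72 and F46C5.1.

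anr-17 lies opposite cgt-2, a ceramide glucosyltransferase gene, and its log2 change was 1.36 on a mean of only 3.83 reads. It measured 0, 1.03 and 1.08 FPKM in the wild type and 3.60, 1.72 and 4.75 FPKM in the mutant, without overlap, and with a wild-type mean of 0.705 FPKM it is a member only through the mutant. cgt-2 measured 2.20, 2.46 and 2.39 FPKM in the wild type and 3.57, 4.55 and 4.45 FPKM in the mutant, likewise without overlap. C15H11.16 shares 319 of its 606 exonic bases with gnrr-2, a gene related to gonadotropin-releasing hormone receptors, whose log2 change was -0.06 against -0.59 for C15H11.16. linc-110 overlaps the calexcitin gene cex-2 on the same strand without a shared exonic base. The log2 change of cex-2 was 0.59, against 0.33 for linc-110. cex-2 measured 23.9, 29.7 and 36.9 FPKM in the wild type and 37.5, 52.8 and 46.6 FPKM in the mutant. Its strains did not overlap, while those of linc-110 did. cex-2 also lies next to the altered locus, as it ends at 7836615 and linc-133 begins at 7837826 on chromosome II.

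**Figure D5:**
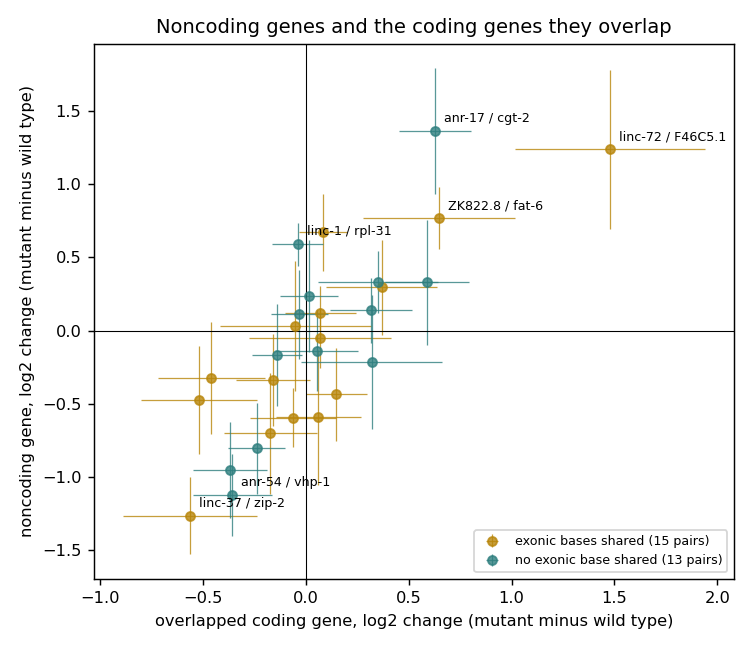
Log2 change (mutant minus wild type) of each member against that of the coding gene it overlaps, for 28 pairs, with limma's standard errors as bars. The 13 pairs without a shared exonic base and the 15 with one both run from lower left to upper right (r = 0.79 and 0.83). Members that reached 1 FPKM through only 1 strain are among the points.

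The coding genes overlapped were also looked up in 10 lists made from the first letters of gene symbols. Members overlapping a listed gene were anr-43 opposite the collagen gene col-153, anr-50 opposite the nuclear hormone receptor genes nhr-87 and nhr-146, and linc-1 opposite rpl-31. anr-43 measured 2.61, 1.78 and 1.67 FPKM in the wild type and 0.346, 0.441 and 0.913 FPKM in the mutant. The strains did not overlap, on a mean of 6.5 reads (limma log2 change -0.95, adjusted p = 0.290), but with a mutant mean of 0.566 FPKM anr-43 is a member only through the wild type. anr-50 measured 0.251, 2.40 and 3.36 FPKM in the wild type and 2.79, 1.78 and 4.91 FPKM in the mutant, with overlap, while nhr-87 averaged 0.253 FPKM. No member overlapped a gene listed under chaperones, histones or neuropeptides. The lists of F-box and ubiquitin ligase genes, innate immunity, neuronal channels and receptors, and chromatin held none either. Of the 194 genes of these types under 1 FPKM, 4 overlapped a gene of the F-box and ubiquitin ligase list. For neuropeptides, innate immunity, neuronal channels and receptors, and chromatin it was 1 each. The listed gene under neuronal channels and receptors was unc-15, a muscle gene. Such lists miss genes of the same functions under other symbols, among them zip-2, the transcription factor gene fos-1 opposite anr-32, and gnrr-2.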

How the data were processed

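The authors deposited FPKM values, per the file headers, with each gene's length, position and type. Build WBcel235 and the tools StringTie, STAR 2.5.2b and Bowtie 0.12.2 are listed in the submitters' processing notes without their roles. The library kit was TruSeq RNA, per the labels' protocols, and how strand and shared exons were counted is not given there. Whole reads were recovered from FPKM times gene length (largest distance from a whole read 2.83e-05). The authors' values already held a scaling between libraries.

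Genes whose mean reached 1 FPKM were fitted on log2(FPKM + 1) by limma 3.58.1 (R 4.3.3), with trend and robust moderation and the strain as the only term. The fit was tested on simulated data, where a share of changes found was required only with a smaller spread between libraries than observed. The share found at the observed spread is not given here. Exons came from the Ensembl 115 annotation. Genes named are linc-133, the 12 highest members, the 8 higher and 8 lower members of lowest p with at least 10 reads on average, the 10 highest linc genes, lep-5, members within 50 kb of linc-133, the 3 genes on each side of the level limit, the coding genes these overlap, and members overlapping the fixed lists. srz-11, K11D9.5, sca-1, linc-102, anr-17 and cgt-2 were named after their values were seen. Members and lists were chosen with earlier results of these data known. Alternatives were other pseudocounts, filters and scalings, voom on recovered reads, a replicate block, and leaving out each library.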

Additional observations from a re-analysis of the deposited data

How the results depend on the processing

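No member passed an adjusted p of 0.05 in limma (20 at an unadjusted p under 0.05), nor under any alternative except voom with quality weights, which called 2. Over all genes, the count of 0 became 1 with a filter at 10 reads, 23 with neither trend nor robust moderation, 3 with voom and 446 with quality weights (345 higher, 101 lower). The weights were lowest in mutant replicates 3 (0.405) and 1 (0.587). Leaving out 1 library gave 0 genes and 0 members in each case. The 20 members with an unadjusted p under 0.05 became 8 of 40 with a filter at 5 FPKM, and 8 to 20 when 1 library was left out (13, 8 and 10 without wild-type replicates 1, 2 and 3). Their excess of lower over higher turned without mutant replicate 3, to 11 higher and 9 lower. The background of 13.7% of all genes belongs to the main fit. The shares of all genes at that p under the alternatives, here and below, are not given, so these counts describe the members only. The members' median log2 change of -0.07 was -0.12 to 0.01 with 1 library left out, 0.12 at 5 FPKM or more and -0.22 in antisense members alone. The 33 members overlapping a coding gene became 16 by exons and 12 of 40 at 5 FPKM or more. The difference of linc-133 was -0.0724 to -0.0399 FPKM with 1 library left out.

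With the replicate number as a block, 17 members had an unadjusted p under 0.05 (7 higher, 10 lower) and 0 genes passed adjustment. Deviations of same-numbered libraries had r of 0.0162, -0.0345 and 0.0288, within the range of other-numbered ones (-0.0586 to 0.0518). These values show no pairing by number, but they cannot tell whether same-numbered libraries were cultured or prepared together.

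Of 31 named members, 22 kept their direction in each alternative. Signs turned for linc-11 (-0.0581), linc-56 (-0.0357) and linc-9 (-0.000537) with quality weights and for linc-149 (0.0874) with quantile normalization. With 1 library left out, log2 changes ran from -0.13 to 0.16 in linc-11, -0.14 to 0.34 in linc-15, -0.38 to 0.25 in Y9D1A.1, -0.00134 to 0.28 in linc-56, -0.24 to 1.03 in linc-84, -0.16 to 0.21 in linc-9, -0.29 to 0.39 in lep-5, -0.0446 to 0.68 in linc-110 and -0.14 to 0.0495 in linc-149. The cause of these changes was not tested. Depth limits members under 10 reads, and the 3 libraries per strain limit every test.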

Other observations

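By chromosome, the members' median log2 change ran from -0.29 on X (19 members, 6 lower and 1 higher at an unadjusted limma p under 0.05) to 0.11 on II (22 members, 1 lower and 0 higher), and these values were not tested against each other. The 25 members opposite a coding gene had a median log2 change of 0.11, the 8 on the same strand -0.37 and the 64 outside coding genes -0.09. Among those 64, 10 were lower and 1 higher at an unadjusted limma p under 0.05. Of all genes tested, on any chromosome, 6.48% were lower and 7.22% higher at that p. Of the 1042 tested genes typed ncRNA, 158 were lower and 22 higher. The share over all genes on X is not given here. The 15 antisense members had median deviations of -0.24, 0.23 and 0.31 in wild-type replicates 1, 2 and 3 and of -0.13, -0.22 and 0.28 in the mutant replicates, so single libraries of both strains lay on either side of 0.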
